A study of Mus musculus with 6 samples.

Results

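A set of 10 genes that the transcription factor p53 is known to switch on was followed in mouse intestinal stem cells with and without Ring1a and Ring1b, the catalytic subunits of a Polycomb complex that keeps developmental genes silent: Phlda3, Gdf15, Btg2, Mdm2, Ccng1, Bax, Trp53inp1, Sesn2, Bbc3 and Perp. They were chosen by name, with earlier results of these data known, as 10 of 16819 gene symbols in the table of WT and RingKO cells and of 15915 symbols in the table of the beta-catenin pair. Each of the 10 had 1 RefSeq entry in each table, and 9 of them reached a mean of 10 normalized reads in both. Trp53inp1 did not, with at most 6 reads in any library.

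RNA came from Lgr5-GFP+ cells sorted from small-intestinal crypts of C57BL/6 mice that received 3 tamoxifen injections and were sacrificed 6 days afterwards. All mice carried Lgr5Gfp-CreERT2, which marks Lgr5-expressing stem cells and drives a tamoxifen-dependent Cre recombinase in them. WT (2 libraries) had no other engineered allele in the labels. RingKO (2 libraries) was Ring1a-/- Ring1bf/f, so Ring1a (symbol Ring1) was absent from all tissues and Ring1b (symbol Rnf2) was to be lost where Cre was active. Bcat (1 library) carried Ctnnb1-ex3, an allele of the beta-catenin gene, and Bcat_RingKO (1 library) carried Ctnnb1-ex3 together with Ring1a-/- Ring1bf/f. The labels give no age, and they do not say that the libraries of a group came from separate animals, so a p-value here reflects only how far these libraries spread, and that spread may be technical. In RNA from sorted cells, a change in the share of cells that express a gene and a change in RNA per cell cannot be told apart.

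The transcription factor p53 accumulates when DNA is damaged or when its inhibitor Mdm2 is blocked, for instance by the Arf protein encoded at Cdkn2a, and binds paired copies of a short DNA motif in its target genes. Its targets arrest the cell cycle, adjust metabolism and survival signalling, or start apoptosis. In the intestinal crypt, Bbc3 (Puma) is known for its part in p53-dependent death of stem cells after irradiation. Mdm2 is both a target and the main inhibitor of p53. Cdkn2a is a classic gene silenced by Polycomb.

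The promoters of the members are shown because these genes were taken as a group by their regulator. RefSeq windows (GRCm38.p6, from 250 bases before to 50 after a transcription start) were found for 8 of the 10, in 11 windows, and Trp53inp1 and Perp had none. The windows were searched on both strands for the p53 half-site, a motif of 10 bases whose consensus reads the same on either strand. It was present in 3 of the 8 genes (Bax, Ccng1 and Mdm2), or 27.3% of their 11 windows, and in 8.36% of all 32851 promoter windows. These 3 sites lie 201, 185 and 186 bases before the start, at chr7:45467070-45467119 (Bax), chr11:40755442-40755491 (Ccng1) and chr10:117710915-117710964 (Mdm2), all on the minus strand. They are printed 5′ to 3′ on the strand of the gene with the motif in capitals.
Bax: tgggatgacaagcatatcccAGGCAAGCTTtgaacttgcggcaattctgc
Ccng1: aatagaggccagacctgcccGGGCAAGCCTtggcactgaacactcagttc
Mdm2: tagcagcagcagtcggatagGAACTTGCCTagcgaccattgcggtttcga
The windows of Phlda3 (chr1:135765835-135766084, plus strand) and Btg2 (chr1:134079156-134079405, minus strand) are printed whole up to the start, because these 2 genes rose in RingKO cells and lie on the chromosome of Rnf2. Neither holds the p53 half-site. The capitals in Btg2 mark a cyclic AMP response element, TGACGTCA, 166 bases before the start, a motif known from immediate early genes and found in 1.79% of all windows.
Phlda3: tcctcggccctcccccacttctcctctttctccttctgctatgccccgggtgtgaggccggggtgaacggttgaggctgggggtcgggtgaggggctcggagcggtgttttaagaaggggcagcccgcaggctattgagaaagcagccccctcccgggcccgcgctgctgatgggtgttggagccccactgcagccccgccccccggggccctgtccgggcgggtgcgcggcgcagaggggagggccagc
Btg2: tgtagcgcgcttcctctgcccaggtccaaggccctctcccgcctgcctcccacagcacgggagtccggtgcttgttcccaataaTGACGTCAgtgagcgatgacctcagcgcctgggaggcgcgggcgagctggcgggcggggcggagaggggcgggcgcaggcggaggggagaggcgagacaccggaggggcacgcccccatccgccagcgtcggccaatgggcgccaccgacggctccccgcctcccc
The element TGATGNAA, which the stress factor ATF4 is known to bind, was in none of the members' 11 windows and in 3.97% of all windows. A match describes letters only, and known p53 sites often lie in introns outside these windows.

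Reads assigned to RefSeq entries came to between 2651201 and 6753789 in the WT and RingKO libraries, 922153 in Bcat and 4470853 in Bcat_RingKO. Normalized reads below are reads plus 1 divided by the size factor of the library, the form in which the values were deposited, and letters A and B, given in an arbitrary order, name the 2 WT and the 2 RingKO libraries. The targeted gene Ring1 was at 484 and 363 reads in the WT libraries and at 9 and 11 in the RingKO libraries, and 24 reads in Bcat against 43 in the deeper Bcat_RingKO library (ratio 0.358, 95% counting interval 0.213 to 0.617). For Rnf2 the log2 fold change was 0.34 ± 0.19, and counts over the whole transcript do not check a floxed allele. Ctnnb1 had 14 reads in Bcat and 76 in Bcat_RingKO, which do not check the Ctnnb1-ex3 allele. RingKO library B stood apart in its 6 stem cell markers, whose summed normalized reads were 12186 against 26167 in RingKO library A and 32892 and 38658 in WT. Both RingKO sums lay below both WT sums. By the authors' test 1 of the 6 fell and 0 rose, beside 1.76% and 3.14% of all entries. In 4 of the 6 both RingKO libraries lay below both WT libraries, against 44.4% of entries with a mean of at least 10. The median log2 ratio of the 6 was -0.64, beside -0.18 over such entries. The 6 epithelial markers summed to between 34183 and 37448 in the WT and RingKO libraries, and to 11748 in Bcat and 6860 in Bcat_RingKO, where 2 of 6 had a ratio of at most 0.5. Paneth cell markers, 6 of 6 of which rose in RingKO, summed to 17269 and 11816 in WT and 38448 and 48615 in RingKO, but to 9324 in Bcat and 2558 in Bcat_RingKO, where 6 of 6 had a ratio of at most 0.5. Of enteroendocrine markers 5 of 6 fell in RingKO (median log2 ratio -2.82), of tuft cell markers 4 of 6 (-2.04 over 5) and of enterocyte markers 2 of 6 (-0.20). Goblet cell markers were mixed, with 1 of 6 that rose and 0 that fell (-0.23). Both RingKO libraries lay above both WT libraries in 2 of these 6 and below them in 2. In the Bcat pair 6 of 6 enteroendocrine markers (median -3.16), 6 of 6 enterocyte markers (-2.42) and 1 of 5 tuft cell markers (0.07) had a ratio of at most 0.5. Of 6 goblet cell markers 3 had such a ratio and 2 a ratio of at least 2 (-0.98). Of all entries with a mean of at least 10 in this pair, 9.19% and 27.1% had such ratios, and the median log2 ratio was 0.31. The part of these cell types in the results below was not tested. Of 8 immune markers 0 passed the test, with 0 at an unadjusted p under 0.05. edgeR and DESeq2 called 0, but tested only 2 and 3 of the 8. In 2 of the 3 with a mean of at least 10, both RingKO libraries lay above both WT libraries, against 19.3% of such entries. The median log2 ratio of these 3 was 0.95, beside -0.18 over all such entries. The immune sums were 103 and 98.7 for WT, 139 and 235 for RingKO, 114 for Bcat and 191 for Bcat_RingKO, most of it from Cd68 and Lyz2. Ptprc and Itgam had 0 reads in both RingKO libraries, and the part of the immune markers in the results was not tested. Of 8 markers of stroma and endothelium 1, Vim, fell and 0 rose, with Pecam1 at 0 reads in both RingKO libraries. The sums were 196 and 180 for WT, 93.8 and 77.5 for RingKO, 239 for Bcat and 279 for Bcat_RingKO. The sum of the Bcat pair hides a fall of most of these markers. Of the 4 with a mean of at least 10 there, 3 had a ratio of at most 0.5 (median log2 ratio -3.41).

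RingKO cells were compared with WT cells to ask which p53 targets change when Ring1a and Ring1b are lost. Phlda3, Gdf15 and Btg2 rose, by 7.06-, 2.32- and 1.85-fold in the authors' deposited table, and 0 of the 10 fell (also 0 at an unadjusted p under 0.05). The rule was an adjusted p below 0.05, as given by the authors' deposited table, and by it 3.14% of all 18376 entries rose and 1.76% fell, 4.9% in all. The edgeR quasi-likelihood test on reads recovered for each library called 5 members as higher (Phlda3, Gdf15, Btg2, Sesn2 and Ccng1) and 0 as lower, beside 9.91% and 2.95% of 11170 entries. DESeq2 also called 5 as higher, with Bbc3 in place of Sesn2, and 0 as lower, beside 6.88% and 1.89% of 12676 entries. In 7 of the 9 members with a mean of at least 10, both RingKO libraries lay above both WT libraries, against 19.3% of the 10957 entries with such a mean, and in 0 both lay below, against 44.4%. The exceptions were Mdm2 and Perp. The deposited scaling placed the median log2 ratio of those entries at -0.18. With trimmed-mean (TMM) scaling the median of the entries tested by edgeR was -0.01, so log2 fold changes from edgeR below stand higher than the deposited ones by about this shift. They carry their SE and rest on 2 libraries a genotype.

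**Figure D1:**
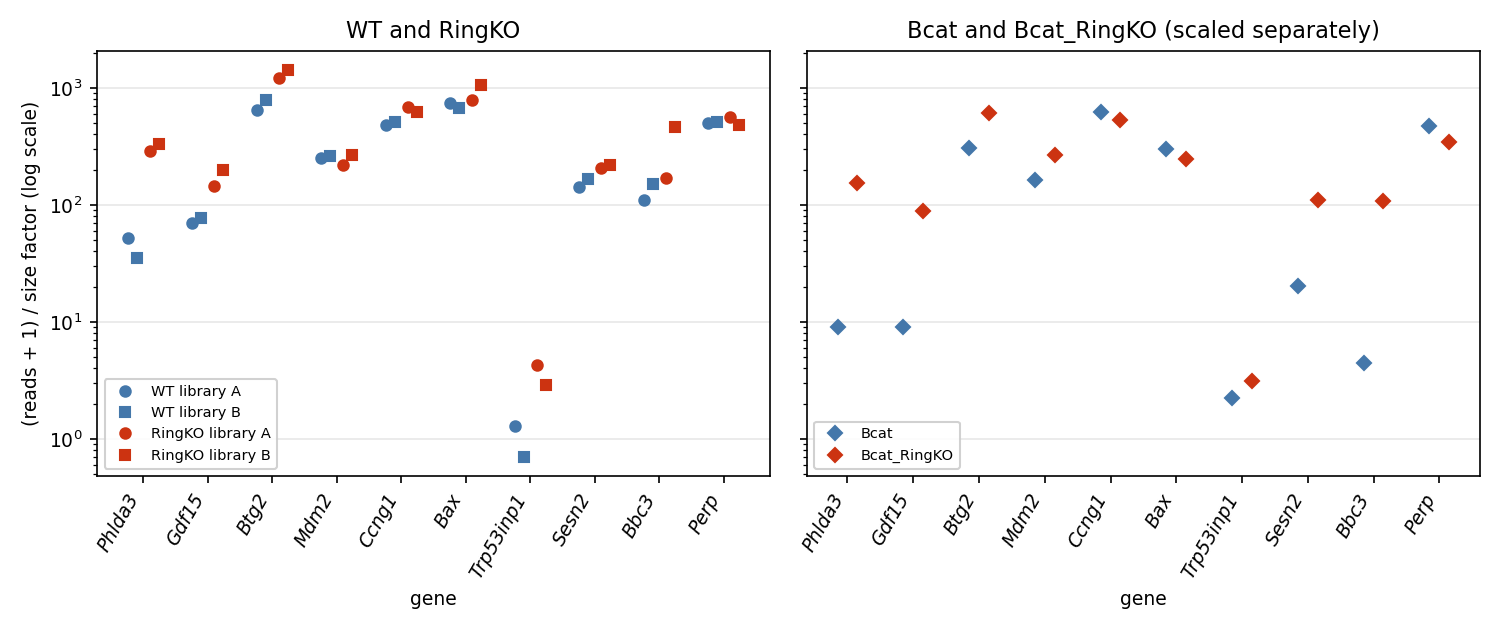
Normalized reads (reads plus 1, divided by the size factor, log axis) of the 10 p53 target genes in each library, on the left for WT (blue) and RingKO (red) libraries A and B and on the right for the single Bcat and Bcat_RingKO libraries, which were scaled separately. Phlda3 stood at 35.2 and 52.4 in WT and at 287 and 332 in RingKO, and Phlda3, Gdf15, Sesn2 and Bbc3 had fewer than 21 normalized reads in Bcat and more than 89 in Bcat_RingKO.

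Phlda3 encodes a small protein with a pleckstrin homology domain that keeps the kinase Akt from the membrane. It had 81 and 49 reads in the WT libraries and 201 and 230 in RingKO, or 52.4 and 35.2 normalized reads against 287 and 332. Both RingKO libraries lay far above both WT libraries. The log2 fold change was 3.01 ± 0.23 by edgeR and 2.82 in the authors' deposited table (adjusted p = 9.62e-19 there). The call held in each of 10 alternative fits, with log2 fold changes from 2.73 to 3.34. Of all genes with a mean of at least 50 in both tables, the 3 whose pair of log2 ratios (RingKO against WT and Bcat_RingKO against Bcat, 7172 entries, 6 libraries) lay nearest to that of Phlda3 were Sox21, Jag2 and Col16a1, at Euclidean distances of 0.16, 0.23 and 0.23. These distances rest on 2, 5 and 3 reads in Bcat, beside 3 for Phlda3, so they give no order among the 3 genes. In WT and Bcat, Sox21 was at 16.1 and 6.71 normalized reads, Col16a1 at 39.5 and 8.94, and Phlda3 itself at 43.8 and 8.94. These genes reached the mean of 50 in both tables only through the groups without Ring1a and Ring1b. Jag2, at 59.0 in WT and 13.4 in Bcat, did so in the Bcat pair. Jag2, a Notch ligand gene, had 59.4 and 58.5 normalized reads in WT and 335 and 376 in RingKO. The transcription factor gene Sox21 had 8.95 and 23.3 against 122 and 86.2, and the collagen gene Col16a1 40.9 and 38.1 against 291 and 227.

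Gdf15 encodes a secreted stress cytokine that is a target of p53 and also of the integrated stress response. It had 70.3 and 76.8 normalized reads in the WT libraries and 145 and 197 in the RingKO libraries, with no overlap. The log2 fold change was 1.40 ± 0.21, and the adjusted p in the authors' deposited table was 0.00818. The call held in each of 10 alternative fits (log2 fold change 1.13 to 1.64). Sesn2, which encodes a leucine sensor that restrains mTORC1 and shares both regulators, had 141 and 165 normalized reads in WT and 205 and 218 in RingKO. Its libraries did not overlap either, but the authors' deposited table gave an adjusted p of 0.544. edgeR gave Sesn2 a log2 fold change of 0.65 ± 0.16 and a Benjamini-Hochberg adjusted p of 0.0346, and with the authors' size factors 0.0938, while DESeq2 gave 0.155 and leaving out WT library A 0.372. The other integrated stress response genes were read beside these. Of 15, none (0) rose or fell by the authors' test, and 1 was below 0.05 before adjustment. edgeR tested 12 and DESeq2 14 of them, and both called the same 3 as higher, Phgdh, Cebpb and Ppp1r15a. Of all entries they tested, 9.91% and 6.88% were called as higher. The median log2 ratio of the list was 0.53 over the 13 genes with a mean of at least 10, beside -0.18 over all such entries. The list summed to 5262 and 5685 normalized reads in WT and 6421 and 7563 in RingKO.

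Btg2 encodes an antiproliferative cofactor that recruits the deadenylation machinery to messenger RNA, and it is also an immediate early gene. It stood at 641 and 783 normalized reads in the WT libraries and at 1212 and 1420 in the RingKO libraries, and the groups did not overlap. The log2 fold change was 1.07 ± 0.17 (adjusted p = 0.000611 in the authors' deposited table). Leaving out WT library A ended the call for Btg2, with an adjusted p of 0.109 by edgeR. Immediate early genes, which cell dissociation is also known to induce, were read beside it. Of 18 with an entry, 2 rose, Jun (0.95 ± 0.20) and the heat shock co-chaperone gene Dnajb1 (0.89 ± 0.16). By the same test 0 fell, beside 3.14% of all entries that rose and 1.76% that fell. edgeR and DESeq2 each called 12 of the 18 as higher, beside 9.91% and 6.88% of the entries they tested. Without WT library A or B the edgeR adjusted p was 0.257 and 0.068 for Jun and 0.158 and 0.128 for Dnajb1. The list had a median log2 ratio of 0.78, beside -0.18 over all entries, and summed over the list they had 27909 and 36824 normalized reads for WT and 44737 and 61722 for RingKO. The part of these genes in the rise of Btg2 was not tested.

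Ccng1 encodes cyclin G1, an abundant p53 target that acts back on Mdm2 through protein phosphatase 2A. It had 483 and 509 normalized reads in WT and 682 and 626 in RingKO. The libraries did not overlap, and the adjusted p of the authors' deposited table was 0.463. By edgeR the log2 fold change was 0.58 ± 0.13 with a Benjamini-Hochberg adjusted p of 0.0225, which was 0.0953 with the authors' size factors and 0.352 without WT library A. Mdm2, the ubiquitin ligase that degrades p53, had 254 and 261 normalized reads in WT and 219 and 267 in RingKO. These values overlapped, and the sign of the Mdm2 difference depended on the scaling, with a log2 value of -0.08 in the authors' deposited table and 0.10 ± 0.17 by edgeR.

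The 3 members that act in apoptosis or cell adhesion did not pass the authors' test. Bbc3 encodes Puma, a BH3-only protein that activates apoptosis at mitochondria, and was read 171 and 215 times in the WT libraries and 119 and 320 times in the RingKO libraries. In normalized reads this was 110 and 152 in WT against 171 and 461 in RingKO, so the RingKO libraries differed 2.70-fold from each other. The deposited ratio of Bbc3 was 2.41 with an adjusted p of 0.852 in the authors' deposited table. By edgeR its log2 fold change was 1.47 ± 0.42 (Benjamini-Hochberg adjusted p = 0.0596), or 0.53 without RingKO library B (0.0942) and 2.04 without RingKO library A (9.42e-07). DESeq2 called it, with an adjusted p of 0.00680. Bax, the pore-forming effector that Puma helps to activate, had 741 and 674 normalized reads in WT and 789 and 1055 in RingKO, with an edgeR log2 value of 0.57 ± 0.19 (edgeR adjusted p = 0.0929, and 0.695 in the authors' deposited table). Its groups were separate by a small margin, and 1 library decided the size of its difference. Without RingKO library A its log2 value was 0.80 (edgeR adjusted p = 0.000223) and without RingKO library B 0.30 (0.115), and without WT library A or B the adjusted p was 0.348 and 0.590. Perp, a desmosome protein gene, had 497 and 515 normalized reads in WT and 558 and 481 in RingKO, which overlapped (log2 fold change 0.22 ± 0.13, edgeR adjusted p = 0.351). Trp53inp1, which encodes a nuclear cofactor of p53, was read once in 1 WT library, not in the other, and 2 and 1 times in the RingKO libraries, too few for a ratio.

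Among the other genes of the pathway, Cdkn2a stood apart. Of its 2 RefSeq entries in each table, the one with the highest mean is given here. It was unread in both WT libraries and had 22 and 31 reads in RingKO libraries A and B. With the WT libraries together set at 3 reads it was at least 37.6-fold higher, and it was the 1 of 24 p53 regulators that rose, while 0 fell. The regulators had a median log2 ratio of -0.35 over 23 genes. Trp53 itself was at 46 and 35 reads in the WT libraries and 15 and 8 in the RingKO libraries, and its difference of -0.54 ± 0.39 on the log2 scale did not pass (adjusted p = 0.992 in the authors' deposited table). Mdm4, the partner of Mdm2, was at -0.02 in the authors' deposited table and at 0.16 ± 0.15 by edgeR, so its sign too depended on the scaling. Of 43 other p53 target genes 2 rose and 0 fell, beside 3.14% and 1.76% of all entries. These were Ephx1, an epoxide hydrolase gene with 288 and 279 normalized reads in WT and 719 and 592 in RingKO (1.39 ± 0.14), and the xylulose reductase gene Dcxr with 195 and 175 in WT and 372 and 398 in RingKO (1.24 ± 0.15). edgeR called 6 of these targets as higher, beside 9.91% of 11170 entries. DESeq2 called 4, Ephx1, Dcxr, Trp53i13 and Sfn, beside 6.88% of 12676 entries. Cdkn1a, the gene of the cell cycle inhibitor p21, had 71.6 and 76.8 normalized reads in WT and 125 and 102 in RingKO, which did not overlap. Its log2 fold change was 0.79 ± 0.19 with an edgeR Benjamini-Hochberg adjusted p of 0.0314, while DESeq2 gave 0.191 and the adjusted p was 0.484 in the authors' deposited table. The median log2 ratio was 0.11 over the 34 other targets with a mean of at least 10 and 0.47 over the 9 members, beside -0.18 over all entries. Of 12 cell cycle genes that p53 is known to repress through p21, 3 fell and 0 rose: the mitotic regulators Foxm1 (-0.67 ± 0.13), Bub1b (-0.63 ± 0.17) and Ccna2 (-0.60 ± 0.17). By edgeR the adjusted p of Bub1b was 0.052 and that of Ccna2 0.060, and without WT library A or B it was 0.174 and 0.178 for Foxm1, 0.283 and 0.297 for Bub1b and 0.329 and 0.307 for Ccna2. The median of that list was -0.65.

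**Figure D2:**
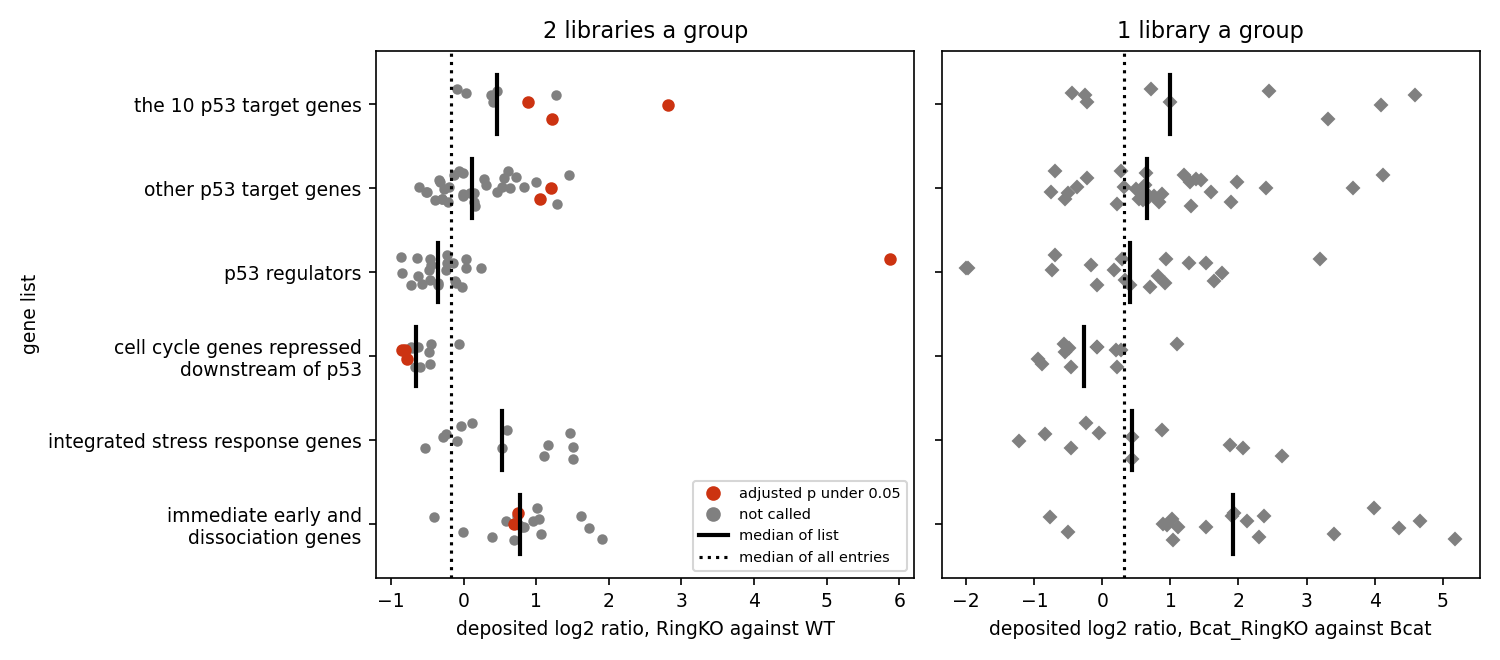
Deposited log2 ratios of the genes of 6 lists that averaged 10 or more normalized reads, for RingKO against WT (left, red where the adjusted p was under 0.05) and Bcat_RingKO against Bcat (right, no test). The black bars are list medians and the dotted line is the median of all entries; the 9 p53 target genes shown had medians of 0.47 and 1.00, and the immediate early and dissociation genes 0.78 and 1.92.

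Bcat_RingKO was compared with Bcat to see the same genes where beta-catenin carried the Ctnnb1-ex3 allele. With 1 library a group the difference has no replicate check, and intervals cover counting error only. Bbc3, Phlda3, Gdf15 and Sesn2 were much higher in Bcat_RingKO, while Btg2 and Mdm2 were higher by a smaller factor and Ccng1, Bax and Perp were slightly lower. Of the 9 members with a mean of at least 10, 4 had a deposited ratio of at least 2 and 0 a ratio of at most 0.5, beside 27.1% and 9.19% of 10266 entries. The same 4 had a ratio of at least 5, which 7.15% of entries reached. Of these, Phlda3, Gdf15 and Bbc3 stood at 8.94, 8.94 and 4.47 normalized reads in Bcat. They reached the mean of 10 only through Bcat_RingKO, the group where they were high, so their place in these counts is no separate result. The median deposited log2 ratio of all these entries was 0.31, and 0.10 with TMM scaling, so a deposited ratio of 1.24 is the middle of the table.

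**Figure D3:**
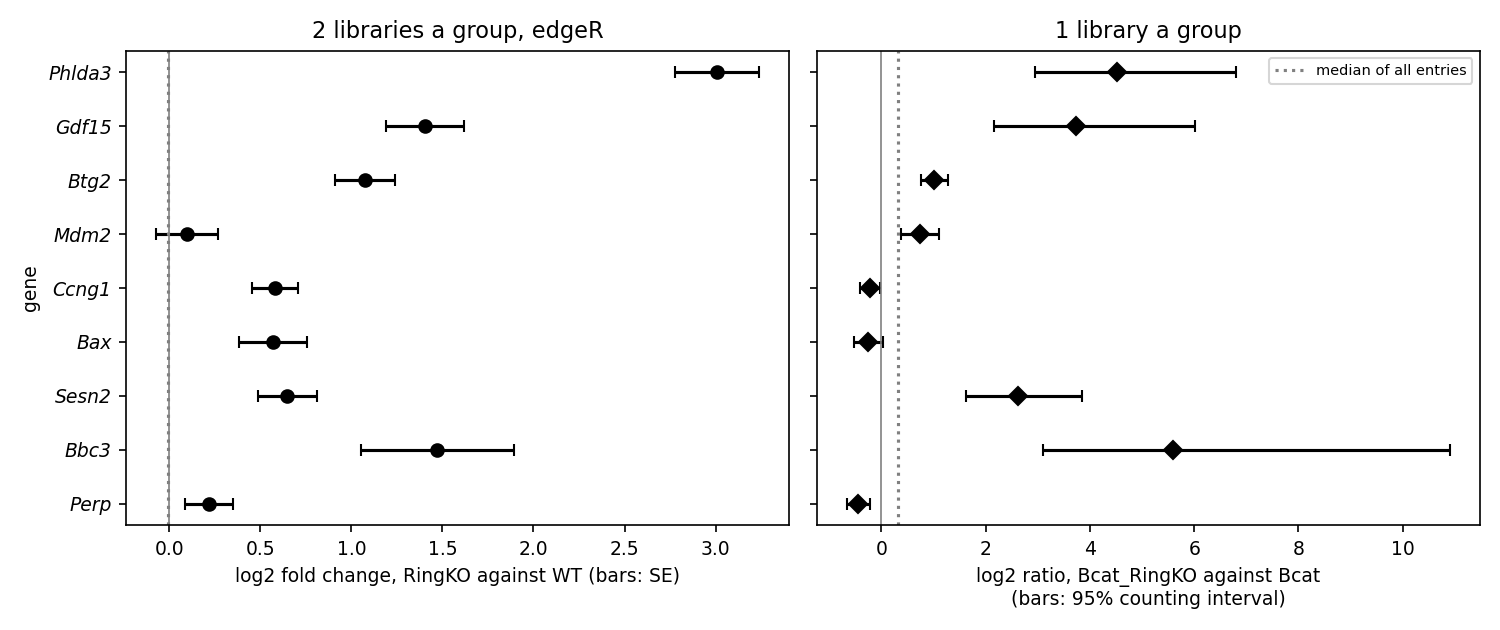
Log2 fold change of RingKO against WT by edgeR with its SE (left, 2 libraries a group) and log2 ratio of Bcat_RingKO against Bcat with the 95% counting interval (right, 1 library a group) for the 9 members with enough reads. The dotted line is the median of all entries; Phlda3 stood at 3.01 on the left and 4.51 on the right, and Bax, Ccng1 and Perp lay above 0 on the left and below 0 on the right.

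Phlda3 had 3 reads in Bcat and 342 in Bcat_RingKO, a ratio of 22.8 after scaling (95% counting interval 7.74 to 111). Bbc3 had 1 read against 241, a ratio of 48.2 (8.57 to 1912). Gdf15 had 3 reads against 199, a ratio of 13.3 (4.47 to 64.9). These intervals are wide, with 1 to 3 reads of each gene in Bcat. Sesn2 had 8 reads in Bcat and 245 in Bcat_RingKO, a ratio of 6.12 (3.06 to 14.3). Btg2 had 136 and 1366 reads, a ratio of 2.01 (1.68 to 2.41). Mdm2 had 72 and 598 reads, a ratio of 1.66 (1.30 to 2.15). The other 3 members lay on the lower side. Ccng1 had 278 and 1196 reads (ratio 0.860, interval 0.755 to 0.984), Bax 132 and 555 (0.841, 0.694 to 1.02) and Perp 210 and 773 (0.736, 0.631 to 0.862). Intervals above 1 were found for 6 of the 9 members, beside 42.5% of entries, and intervals below 1 for 2, beside 20.5%. Trp53inp1 had 0 and 6 reads. Of the 3 members that rose in RingKO cells, Phlda3 and Gdf15 had a deposited ratio of at least 2 in this pair (17.2 for Phlda3), and that of Btg2 lay just under it. Of the 516 entries that rose in RingKO cells and had a mean of at least 10 in both tables, 86.4% had such a ratio, and entries with both properties made up 4.51% of 9893.

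Other genes of the pathway were read from the same pair of libraries. Of 30 other p53 target genes with a mean of at least 10, 11 had a ratio of at least 2 and 0 a ratio of at most 0.5, beside 27.1% and 9.19% of all such entries. Their median log2 ratio was 0.65, beside 0.31 over all such entries. Ephx1 had 22 and 605 reads, a ratio of 5.50 (3.60 to 8.84), and Dcxr 40 and 297, a ratio of 1.49 (1.07 to 2.12). Cdkn1a went the other way, with 9 reads in Bcat and 30 in Bcat_RingKO, and its interval held 1 (ratio 0.667, 0.309 to 1.60). Cdkn2a had 0 reads in Bcat and 45 in Bcat_RingKO, at least 3.00-fold higher if the Bcat library is set at 3 reads. Trp53 had 1 and 10 reads, with an interval of the ratio from 0.285 to 86.8, and Mdm4 had 76 and 626 (1.65, 1.30 to 2.12).

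Transcript composition moved with the ratios of this pair. Over all entries with a mean of at least 10, the median log2 ratio went from -0.05 in the lowest quartile of transcript GC content to 0.88 in the highest, where 46.2% of entries had a ratio of at least 2. In RingKO against WT the corresponding medians were -0.31 and 0.02, and 18.0% of the entries in the highest quartile had a ratio of at least 2. Of the members, 5 lay in the highest GC quartile: Phlda3 (62.6% GC), Gdf15 (61.3%), Bax (59.2%), Sesn2 (58.7%) and Bbc3 (65.2%). The 4 members with large ratios in the Bcat pair were among them, as was Bax, whose ratio was below 1. By transcript length, Phlda3, Gdf15, Bax and Bbc3 lay in the lowest quartile of this pair. Its median log2 ratio was -0.20, and 15.1% of its entries had a ratio of at least 2. Sesn2 lay in quartile 3, with a median of 0.46 and 30.0%. Immediate early and dissociation genes were higher in this pair as well, with 14 of 18 at a ratio of at least 2, a median log2 ratio of 1.92 and summed normalized reads of 6710 in Bcat and 14495 in Bcat_RingKO. The part of GC content, of transcript length and of these genes in the members' ratios was not tested.

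**Figure D4:**
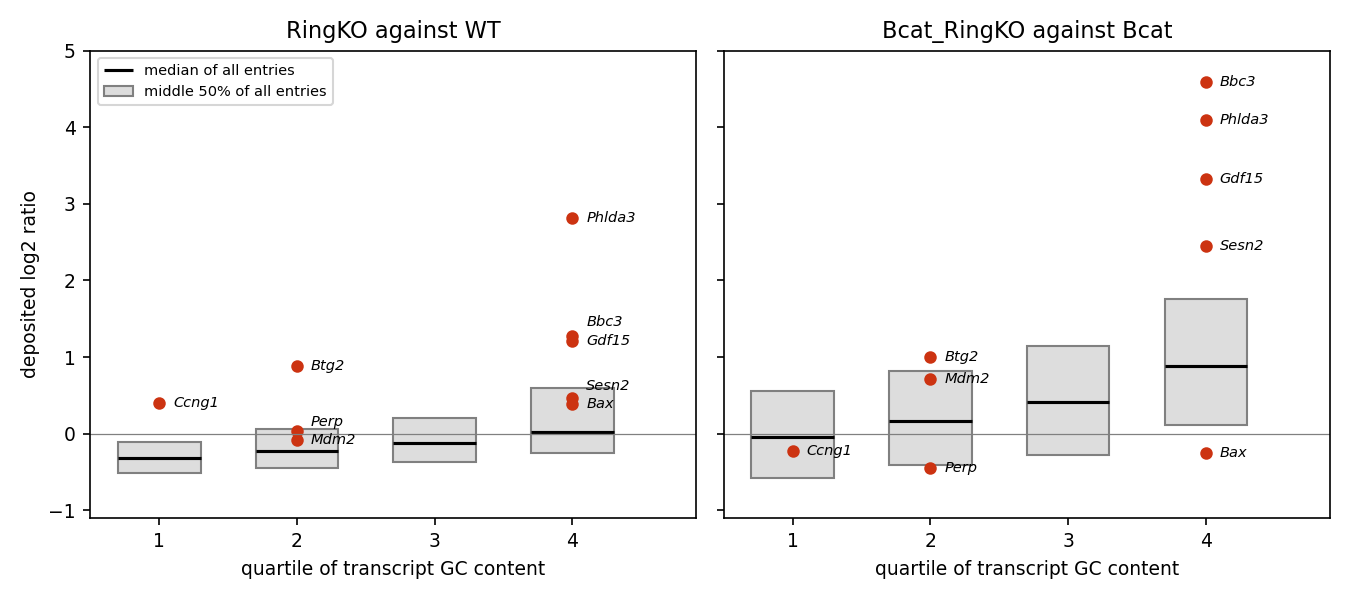
Deposited log2 ratios of all entries at 10 or more normalized reads on average, by quartile of transcript GC content (grey boxes, middle 50%; black lines, medians) with the p53 target genes as red points, for RingKO against WT (left) and Bcat_RingKO against Bcat (right). The medians of all entries go from -0.05 to 0.88 on the right, and Bbc3, Phlda3, Gdf15 and Sesn2 lie above the box of the highest quartile there.

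Read as levels per kilobase of transcript, and within a table only because the tables were scaled separately, Bax was the most abundant member in all 4 groups, at 816 normalized reads per kilobase for WT, 1063 for RingKO, 343 for Bcat and 287 for Bcat_RingKO. In WT, Btg2 (260) and Perp (259) followed with overlapping libraries, then Ccng1 (141), Mdm2 (83.1) and Bbc3 (72.3), whose libraries overlapped with those of Mdm2. Gdf15 (47.6) and Sesn2 (44.0) also overlapped, and Phlda3 (30.5) was the lowest but for Trp53inp1. In RingKO, Phlda3 had place 4 in the order of means at 216 normalized reads per kilobase, between Perp (266) and Ccng1 (186), and apart from both in its libraries. Bbc3 (174) had libraries at 94.0 and 254, a range that covered those of Phlda3 and Ccng1 and overlapped with those of Perp and Gdf15 (111), so its place among these is not settled. In Bcat, the levels per kilobase of Phlda3 (6.23), Sesn2 (5.79), Gdf15 (5.79) and Bbc3 (2.47) were all far under that of Mdm2 (52.7). In Bcat_RingKO, Phlda3 (107) was above Mdm2 (86.4), and Bbc3 (59.7), Gdf15 (57.9) and Sesn2 (31.7) were below it.

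Phlda3 and Btg2 share chromosome 1 with Rnf2, the gene whose floxed allele separates RingKO from WT mice. In the reference gene order 24 genes of the table lie between Btg2 and Phlda3 and 43 between Phlda3 and Rnf2. Among the 10 table genes on each side of Phlda3, 1 of 20 rose and 0 fell, where 3.14% and 1.76% of all entries did, so these counts lie near the background. The gene that rose was Nav1, a gene of the neuron navigator family, with a log2 fold change of 0.90 ± 0.14. edgeR also called Arl8a and Kif21b as higher, where it called 9.91% of the 11170 entries it tested. Of these 20 neighbours 13 had a mean of at least 10, and edgeR left some of the others untested. Among the 20 around Btg2, 0 rose (edgeR called Etnk2 and Ppfia4 as higher) and 1 fell, the matrix proteoglycan gene Prelp (-1.50 ± 0.22). Among the 20 around Rnf2, 1 rose, Fam129a (1.91 ± 0.26), and 2 fell, the phospholipase gene Pla2g4a (-0.89 ± 0.20) and Ivns1abp (-0.92 ± 0.21). Without WT library A or B the edgeR adjusted p was 0.110 and 0.109 for Nav1, 0.081 and 0.147 for Pla2g4a and 0.074 and 0.192 for Ivns1abp. Of all 67 genes between Btg2 and Rnf2, without Phlda3, 1 rose (Nav1) and 4 fell. The 4 were Pla2g4a, Ivns1abp and, outside the rule for named genes and chosen after their values were seen, Rgs2 and Rgs13, at -1.51 and -2.16 in the authors' deposited table. Rgs13 is also in the list of tuft cell markers read above, of which 4 of 6 fell. The median log2 ratio of the stretch over 39 genes with a mean of at least 10 was -0.25, beside -0.18 over all entries. In the Bcat pair the genes around Phlda3 had a median log2 ratio of 0.74 over 12 genes, those around Btg2 0.28 over 13 and those around Rnf2 -0.13 over 12, beside 0.31 over all entries with a mean of at least 10.

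**Figure D5:**
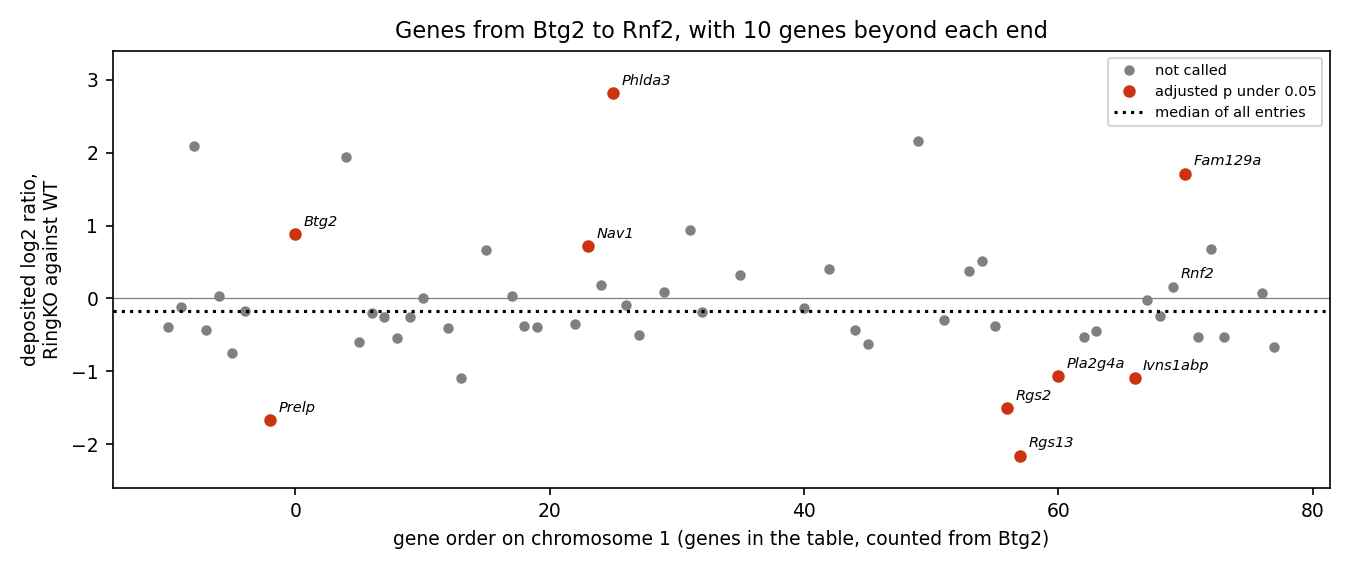
Deposited log2 ratio of RingKO against WT for table genes at 10 or more normalized reads on average, in their order on chromosome 1 counted from Btg2 to beyond Rnf2 (red, adjusted p under 0.05; dotted line, median of all entries). Phlda3 at 2.82 is the highest point, with its neighbours between -0.51 and 0.93.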

How the data were processed

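Total RNA of sorted cells (6 libraries in 4 groups, from the sample titles) was made into TruSeq RNA v2 libraries, per the labels' protocols. TopHat, DESeq and mm9 are named in the submitters' processing notes. For counter, annotation and strand setting, nothing is given in the sources used here. Per RefSeq entry the authors deposited normalized coverage (signal), as group means for WT and RingKO (18376 entries) and singly for Bcat and Bcat_RingKO (17076 entries), each with a fold (ratio) and its log2 value, and p-values, with adjusted p-values for the first table only. The deposited p-values of the Bcat pair compare 2 single libraries and are not used here. Because the first table held means, the authors' deposited adjusted p under 0.05 was the test.

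The deposited signal equals reads plus 1 over a size factor. Each mean is a sum of 2 whole counts, so the reads of single libraries were recovered: 18354 WT and 18374 RingKO values had 1 solution, and the others had means of at least 10030. All Bcat pair values were whole within 0.001. In simulated means 100% were recovered. The letters A and B cannot be matched to replicate numbers. On these reads edgeR 4.0.16 (quasi-likelihood, TMM, filterByExpr, Benjamini-Hochberg), DESeq2 1.42.0 and limma 3.58.1 were run over all entries, and tested on simulated data. The SE is the edgeR fold change over the root of F. Intervals are exact binomial (Clopper-Pearson, 95%). They and the floor of 3 reads cover counting error only.

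Members and gene lists were chosen with earlier results of these data known. The text names the members, Trp53, Mdm4, Cdkn2a, Cdkn1a, Ring1, Rnf2 and Ctnnb1, called genes of the lists and of the chromosome neighbours, and the 3 genes nearest Phlda3. GC and length quartiles and the motifs other than the p53 half-site were added with the tables in view. Transcript lengths and GC content come from GENCODE M21 and gene order from RefSeq (GRCm38), matched by accession for 98.7% of entries.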

Additional observations from a re-analysis of the deposited data

Results flagged for a closer look

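The genotype effect on Ccng1 and on Bax went in opposite directions in the presence and absence of the Ctnnb1-ex3 allele. Ccng1 was higher in both RingKO libraries than in both WT libraries (ratio 1.32) and lower in Bcat_RingKO than in Bcat (ratio 0.860). Bax had ratios of 1.30 and 0.841 in the same 2 comparisons, and its counting interval in the Bcat pair, 0.694 to 1.02, held 1. Perp (1.03 and 0.734) and Mdm2 (0.943 and 1.64, whose first sign depended on the scaling) also lay on opposite sides of 1, but their WT and RingKO libraries overlapped. The difference was not tested, because the Bcat groups have 1 library each, and neither gene passed the authors' test in RingKO against WT. With TMM scaling the ratios in the Bcat pair were 0.741 and 0.724.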

How the results depend on the processing

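Of the 10 members 3 rose with the authors' test, and 5 by edgeR with TMM, by edgeR with DESeq2 size factors and by DESeq2; leaving out 1 library gave 2 to 7 (7 without RingKO library A). Phlda3 and Gdf15 were called in all 10 alternative fits, and Btg2 in 9. The lone library left in an arm is assumed to vary like the others. The share of all entries called in the fits with 1 library left out is not given here. The counts of members from those fits therefore have no background to be read against, and they are no separate result about the members. The members with a ratio of at least 2 in the Bcat pair numbered 4, and with counting intervals 2 were lower. Mdm2 changed sign, at 0.10 (edgeR with TMM), 0.081 (DESeq2), 0.080 (edgeR with DESeq2 size factors) and 0.059 (no filter), and ran from -0.093 to 0.27 with 1 library left out. Mdm4 did so at 0.16, 0.14, 0.14 and 0.12, and at 0.10 to 0.20 with 1 library left out. With only the size factors changed to the authors' in the same edgeR fit, Mdm2 was at -0.089 and Mdm4 at -0.023, so this change alone turned both signs.

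Lists moved as well. With edgeR and DESeq2, 6 and 4 other p53 targets, 3 and 3 integrated stress response genes and 12 and 12 immediate early genes were higher. Of all entries 9.91% and 6.88% were higher in these fits. edgeR called 1 cell cycle gene as lower, beside 2.95% of entries. Of 20 neighbours each of Btg2, Phlda3 and Rnf2, edgeR called 2, 3 and 2 as higher, beside 9.91% of the 11170 entries it tested. A mean of at least 10 was reached by 15, 13 and 12 of them, and edgeR left some of the others untested. Counts out of 20 and that share therefore have unlike bases. With 5 genes on each side 1 neighbour of Rnf2 fell. No paired analysis was possible because the columns carry no replicate numbers. Each member has 1 RefSeq entry, so the choice of entry could not be varied. Cdkn2a and Cdkn1a have 2 entries in each table, and only the one with the highest mean was read. The 922153 reads of Bcat limit the ratios of Phlda3, Gdf15 and Bbc3.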

Other observations

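Other genes of the p53 network differed strongly within the Bcat pair and were chosen after their values were seen. The polo-like kinase genes Plk2 and Plk3, both p53 targets and also immediate early genes, had 11 and 769 reads (ratio 14.0, 95% counting interval 7.77 to 28.1) and 5 and 524 reads (21.0, 8.92 to 64.8) in Bcat and Bcat_RingKO. Neither passed the authors' test in RingKO against WT, where edgeR called both as higher (0.82 ± 0.22 and 1.65 ± 0.43 on the log2 scale). Plk3 had 195 and 553 normalized reads in RingKO libraries A and B. The ribosomal protein genes Rpl5 and Rpl11, whose products bind Mdm2, were lower in Bcat_RingKO, with 1308 and 1635 reads (0.250, 0.232 to 0.269) and 700 and 891 reads (0.255, 0.230 to 0.281). The DNA damage kinase gene Atr was higher, with 34 and 593 reads (3.49, 2.47 to 5.09). In RingKO against WT it lay the other way without passing the authors' test, at -0.67 ± 0.21 by edgeR, with both RingKO libraries below both WT libraries. Over all entries of this pair the median log2 ratio went from -0.20 in the lowest quartile of transcript length to 0.65 in the highest.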
